A study of Mus musculus with 9 samples.

Results

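Genes of the interleukin-6 (IL-6) cytokine family and of its SOCS feedback were followed in mouse embryonic fibroblasts (MEFs) after ectopic expression of *CRX*, the cone-rod homeobox transcription factor of the retina, from a eutherian or a metatherian mammal. The 10 genes, of 22068 listed, were the cytokines *Il6*, *Lif* and *Il11*, the receptor chains *Il6st*, *Lifr* and *Osmr*, the transcription factor *Stat3*, and the feedback inhibitors *Socs3*, *Socs1* and *Socs2*. They were chosen by pathway and by a readout of these same libraries, in which *Socs3* had passed the threshold in both comparisons with control. The values of those 2 comparisons are therefore given as a description, and tests are given for the direct comparison of the *CRX* orthologues, which the choice did not use although it draws on the same libraries.

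All cells were primary C57Bl/6 MEFs at passage 2, electroporated with a plasmid that carried a puromycin resistance gene and selected in puromycin for 5 days. The control plasmid held no homeobox gene, the eutherian *CRX* plasmid held V5-tagged human *CRX*, and the metatherian *CRX* plasmid held V5-tagged opossum *CRX*. Each condition had 3 libraries of polyadenylated RNA, with 54145701 to 94699657 counts per library. No cloning of the cells is described, and the age of the embryos is not given in the sources used here. The paper states that RNA was harvested in triplicate for each condition. Nothing in the labels says that the replicates came from separate cultures, so that p-values measure the spread between these samples.

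Most cytokines of this family bind a receptor chain of their own and then signal through the shared chain gp130, the product of *Il6st*. IL-6 and IL-11 each use a specific alpha receptor with gp130, LIF uses gp130 with the LIF receptor (*Lifr*), and oncostatin M uses gp130 with the oncostatin M receptor (*Osmr*). JAK kinases bound to these chains phosphorylate STAT3, which enters the nucleus and activates target genes. *Socs3* is one of those targets, and its product binds gp130 and the JAKs and shuts the signal down. In fibroblasts the pathway is known for its part in wound repair, fibrosis and inflammation, and LIF is known for holding mouse embryonic stem cells in a pluripotent state.

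The bases before the start of the genes that the results turn on are shown so that the feedback gene can be seen beside the receptor and the cytokine with the largest average differences from control after metatherian *CRX*. They are the 250 bases upstream of a RefSeq start on GRCm38.p6, written in the direction of the gene, with letters of the STAT palindrome TTCNNNGAA in capitals. *Socs3* has its window at chr11:117969367-117969616 (minus strand), *Il6st* at chr13:112463820-112464069 (plus strand) and *Il11* at chr7:4778142-4778391 (minus strand). The windows of *Socs3* and *Il11* lie inside the span over which the gene was counted, which reaches farther upstream, but hold 0 bases of counted exons. A further *Il11* window at the outer end of the gene is not shown.
Socs3: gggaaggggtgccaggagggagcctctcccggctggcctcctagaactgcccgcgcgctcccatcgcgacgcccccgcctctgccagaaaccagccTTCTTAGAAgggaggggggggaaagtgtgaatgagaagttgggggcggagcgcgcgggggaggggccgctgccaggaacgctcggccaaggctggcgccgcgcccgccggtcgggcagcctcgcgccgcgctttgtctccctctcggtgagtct
Il6st: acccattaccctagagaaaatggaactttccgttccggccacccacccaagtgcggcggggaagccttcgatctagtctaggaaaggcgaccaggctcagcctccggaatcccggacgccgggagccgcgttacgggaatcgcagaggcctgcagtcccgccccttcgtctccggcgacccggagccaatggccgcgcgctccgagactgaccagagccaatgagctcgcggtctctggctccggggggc
Il11: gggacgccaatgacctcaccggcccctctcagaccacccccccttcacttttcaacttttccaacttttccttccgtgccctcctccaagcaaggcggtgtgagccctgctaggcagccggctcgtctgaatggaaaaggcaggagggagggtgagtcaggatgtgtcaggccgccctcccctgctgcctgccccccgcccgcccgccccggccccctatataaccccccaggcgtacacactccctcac
The palindrome was present once, as TTCTTAGAA in the window of *Socs3*, 154 to 146 bases upstream of the start. RefSeq windows were at hand for 9 of the 10 genes, with 11 windows in all, and the palindrome, searched on both strands, was in 1 of the 11. Of all 32851 windows of that length, 7.02% held it. The letters TAATCC, the core that CRX proteins are known to bind, were in 0 of the 11 windows on either strand and in 6.25% of all windows. A match describes letters in this window and is neither a site nor a cause.

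Levels are given as CPM (counts scaled to a common library size after TMM normalization, which corrects for differences in composition). *Crx* itself had 627, 995 and 313 counts in the 3 eutherian *CRX* libraries, 0 in each control library, which allows up to 3 counts, and 0 to 4 counts in the metatherian *CRX* libraries, so that the mouse gene checks the eutherian label alone. All 9 fibroblast markers were detected in every condition. Eutherian *CRX* replicate 3 stood apart: on the first principal component of the genes kept, which held 56.0% of the variance, it lay at 55.0 against −27.4 and −30.9 for the other eutherian *CRX* libraries, −32.3 to 6.84 for control and 0.70 to 36.8 for metatherian *CRX*. The summed level of the fibroblast markers was 7704 CPM in this library, 22631 and 23256 CPM in replicates 1 and 2, 24537 to 32872 CPM in control and 8333 to 17997 CPM in metatherian *CRX*. *Col1a1*, a collagen chain and the highest of these markers in control, was at 1095 CPM in it and at 1038 CPM in metatherian *CRX* replicate 3, against 7747 to 10004 CPM in control. *Vim*, which encodes vimentin, was at 4364 and 3888 CPM in these libraries and at 5098 to 5447 CPM in control. The library numbered 3 was the highest on that component in every condition and the farthest from the other two by counts, with a chi-square statistic over its degrees of freedom of 239 and 272 in control, 697 and 706 in eutherian *CRX* and 243 and 283 in metatherian *CRX*, against 46.2, 19.6 and 62.1 between replicates 1 and 2. Where eutherian *CRX* replicate 3 moved a result most, the value without it is given too. The fit without it called 891 of all 10100 genes with metatherian *CRX* against control, 0 with eutherian *CRX* against control, where 781 had an unadjusted p under 0.05, and 340 in the direct comparison, so that its calls are not particular to the genes described here. Without all 3 libraries numbered 3, *Socs3* was called in both comparisons with control, as were 2252 and 346 of all genes with metatherian and eutherian *CRX*.

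Of the 10 genes, 9 passed the filter on low values and *Socs2* did not. The filter asked for a mean above 2 FPKM in at least 1 condition. FPKM is the count divided by the summed length of the gene's exons and by the library total. The filter used totals without TMM scaling, whereas the FPKM values printed here are CPM divided by that length. With edgeR's quasi-likelihood test and Benjamini-Hochberg adjustment over 10100 genes, 1 of the 9 was called at an adjusted p under 0.05 in metatherian *CRX* against control, where 0.0297% of all genes tested were called, and 1 in eutherian *CRX* against control, where 0.604% were called. Both calls were *Socs3*, and nothing is read from these counts since the same comparisons chose the genes. The values of every library stand in the plot of CPM by condition.

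**Figure D1:**
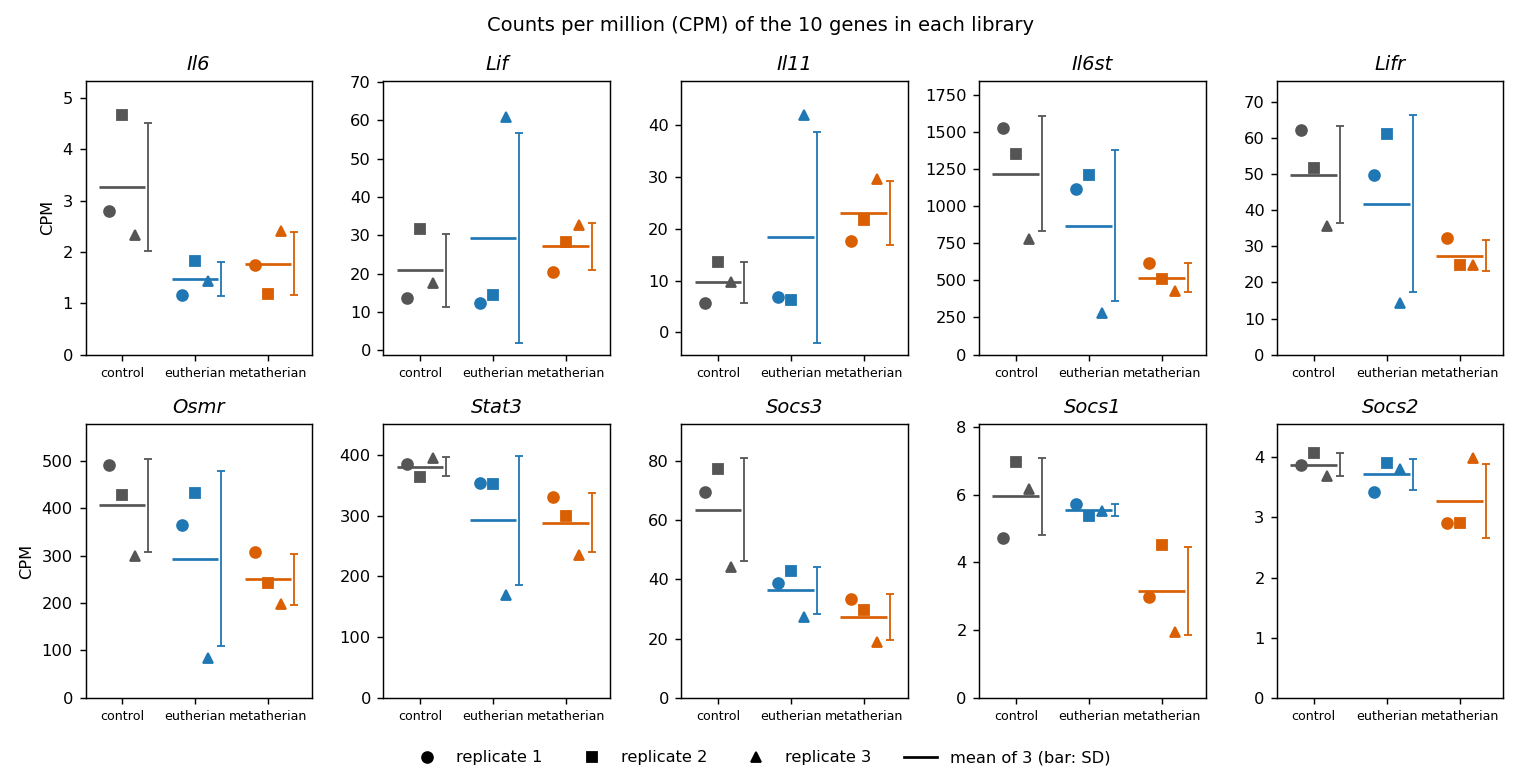
CPM (linear axis, from 0 upwards except where an SD bar runs below it) of each of the 10 genes by condition, with 1 point per library, the symbol giving its replicate number, a horizontal line at the mean of 3 and a bar of 1 SD beside it. The 3 control points of *Socs3* lie at 44.1 to 77.2 CPM, above all 6 *CRX* points, and eutherian *CRX* replicate 3 lies far from its condition for *Lif*, *Il11* and the 3 receptor chains.

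*Socs3* was at 69.5, 77.2 and 44.1 CPM in control, at 38.9, 42.8 and 27.4 CPM in eutherian *CRX*, and at 33.4, 29.8 and 18.7 CPM in metatherian *CRX*. The control values all lay above those of both *CRX* conditions, and metatherian *CRX* replicate 3 was the lowest of the 9. The means were 63.6 CPM ± 17.4 (SD, n = 3) in control, 36.4 ± 7.99 in eutherian *CRX* and 27.3 ± 7.63 in metatherian *CRX*. The fall with metatherian *CRX* was 2.33-fold, a log2 fold change of −1.22 (SE 0.11, 95% interval −1.48 to −0.96). With eutherian *CRX* it was 1.73-fold, a log2 fold change of −0.79 (SE 0.11, 95% interval −1.05 to −0.53). Between libraries with the same replicate number, the log2 difference from control was −1.06, −1.37 and −1.23 for metatherian *CRX* and −0.83, −0.85 and −0.68 for eutherian *CRX*. Control replicate 3 was also the lowest of its condition, so that these differences spread less than the levels did. The call depended on the model. *Socs3* was called in neither comparison without the replicate block, which treats libraries with the same number as a set. It was also lost in the comparison of metatherian *CRX* with control without any 1 of the control libraries, of eutherian *CRX* replicates 1 and 2 or of metatherian *CRX* replicates 1 and 2, and in that of eutherian *CRX* without any 1 library other than metatherian *CRX* replicate 3. With metatherian *CRX* the call also ended without the FPKM minimum (adjusted p = 0.058, edgeR) and without any filter on low counts (adjusted p = 0.051, edgeR). With eutherian *CRX* it also ended in the fit of only the 6 libraries compared. Leaving out all libraries numbered 1, or all numbered 2, ended both calls. The fold changes themselves moved little, with log2 values of −1.32 to −1.13 and of −0.90 to −0.73 over the 20 alternatives tried.

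*Socs1*, which encodes an inhibitor that acts on the JAKs directly and is best known for restraining interferon signals, was much scarcer. It was at 4.72, 6.95 and 6.18 CPM in control, 5.72, 5.37 and 5.52 CPM in eutherian *CRX*, and 2.97, 4.52 and 1.95 CPM in metatherian *CRX*. The metatherian *CRX* libraries were all below the other 6, while those of eutherian *CRX* lay within the control range. The log2 fold change from control was −0.96 (SE 0.27, 95% interval −1.61 to −0.30) with metatherian *CRX* and −0.08 (SE 0.27, 95% interval −0.72 to 0.56) with eutherian *CRX*, and neither passed the threshold. *Socs2*, a feedback inhibitor best known from growth hormone signalling, was at 3.70 to 4.07 CPM in control, 3.43 to 3.91 CPM in eutherian *CRX* and 2.91 to 3.98 CPM in metatherian *CRX*. These ranges overlapped, and *Socs2* was not tested.

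Among the cytokines, *Il11* was the one most above control on average. It was at 5.68, 13.6 and 9.64 CPM in control, 6.83, 6.24 and 41.9 CPM in eutherian *CRX*, and 17.6, 21.7 and 29.7 CPM in metatherian *CRX*. The metatherian *CRX* libraries were all above control, and within eutherian *CRX* replicate 3 was far above the other two, which were inside the control range. The means were 9.63 CPM ± 3.95 (SD, n = 3) in control, 18.3 ± 20.4 in eutherian *CRX* and 23.0 ± 6.11 in metatherian *CRX*. The log2 fold change from control was 1.23 (SE 0.56, 95% interval −0.10 to 2.56) with metatherian *CRX* and 0.51 (SE 0.59, 95% interval −0.89 to 1.91) with eutherian *CRX*, and neither passed the threshold. Without eutherian *CRX* replicate 3, the value for metatherian *CRX* was 1.29 (SE 0.28) and that for eutherian *CRX* was −0.36 (SE 0.32). That for eutherian *CRX* was 1.31 without all libraries numbered 2. The value for metatherian *CRX* also depended on the control libraries, at 1.89 without replicate 2 and 0.81 without replicate 3.

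*Lif*, the cytokine of stem cell self-renewal, had much the same order of libraries. It was at 13.6, 31.6 and 17.5 CPM in control, 12.4, 14.5 and 60.9 CPM in eutherian *CRX*, and 20.6, 28.2 and 32.7 CPM in metatherian *CRX*. The highest library was again eutherian *CRX* replicate 3, and the metatherian *CRX* range overlapped that of control. The log2 fold changes were 0.36 (SE 0.49) with metatherian *CRX* and 0.23 (SE 0.52) with eutherian *CRX*. The latter was −0.52 (SE 0.28) without that library and 0.92 without all libraries numbered 2. None of these passed the threshold.

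*Il6*, the inflammatory cytokine that gives the family its name, had the lowest CPM of the cytokines and ran the other way. It was at 2.80, 4.67 and 2.32 CPM in control, 1.16, 1.83 and 1.43 CPM in eutherian *CRX*, and 1.74, 1.18 and 2.4 CPM in metatherian *CRX*, from 89 to 427 counts per library. The eutherian *CRX* libraries were all below control, and metatherian *CRX* replicate 3 reached into the control range. The log2 fold change was −1.14 (SE 0.38, 95% interval −2.04 to −0.25) with eutherian *CRX* and −0.84 (SE 0.38, 95% interval −1.74 to 0.06) with metatherian *CRX*, and neither passed the threshold. The value for metatherian *CRX* was −0.38 without its replicate 2, −0.52 without control replicate 2 and −0.32 without all libraries numbered 2. *Il6* passed the filter on low values only through control, at 3.0 FPKM against 1.36 and 1.63 FPKM with eutherian and metatherian *CRX*, so that its level in control alone admitted it to the test. Unlike *Lif* and *Il11*, *Il6* did not stand out in eutherian *CRX* replicate 3, where it was the middle value of its condition.

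**Figure D2:**
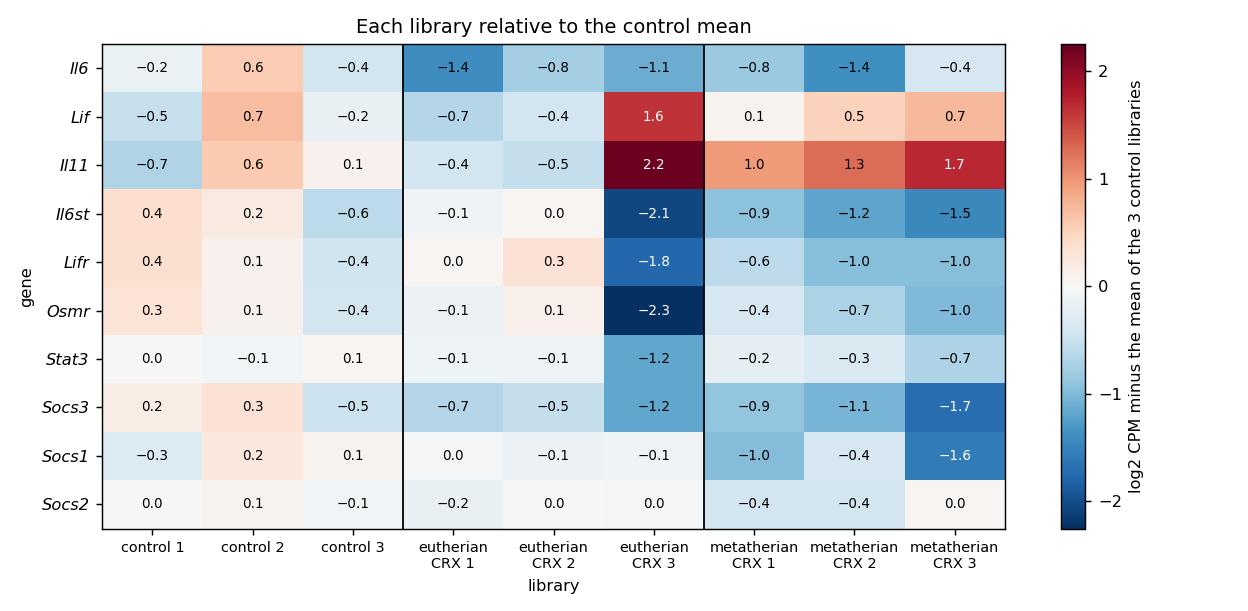
Log2 CPM (prior count 2) of each of the 10 genes in each of the 9 libraries, minus the mean of the 3 control libraries, as colour and printed value (red above, blue below). *Lif* and *Il11* are red and the receptor chains blue in eutherian *CRX* replicate 3 and in the metatherian *CRX* libraries, *Il11* reaching 2.2 and *Osmr* −2.3 in the former.

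The receptor chains were all lower on average with either *CRX*. *Il6st*, the shared chain gp130, was at 1526, 1352 and 782 CPM in control, 1113, 1213 and 282 CPM in eutherian *CRX*, and 618, 512 and 427 CPM in metatherian *CRX*. The metatherian *CRX* libraries were all below control, with eutherian *CRX* replicate 3 lower still. The log2 fold change was −1.16 (SE 0.33, 95% interval −1.93 to −0.39), or 2.23-fold lower, with metatherian *CRX* and −0.63 (SE 0.33, 95% interval −1.40 to 0.15) with eutherian *CRX*, and neither passed the threshold. Without eutherian *CRX* replicate 3 the former was −1.18 (SE 0.15) and the latter −0.22 (SE 0.17). The latter was −0.96 without eutherian *CRX* replicate 2.

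*Lifr*, the chain that pairs with gp130 for LIF, was at 62.2, 51.7 and 35.7 CPM in control, 49.9, 61.2 and 14.3 CPM in eutherian *CRX*, and 32.4, 24.9 and 24.9 CPM in metatherian *CRX*. *Osmr*, the chain that pairs with gp130 for oncostatin M, was at 492, 428 and 300.1 CPM in control, 365, 432 and 83.5 CPM in eutherian *CRX*, and 308, 243 and 199 CPM in metatherian *CRX*. In both, eutherian *CRX* replicate 3 was the lowest of the 9 libraries. The metatherian *CRX* libraries were all below control for *Lifr* and overlapped it for *Osmr*. The log2 fold changes with metatherian *CRX* were −0.80 (SE 0.35) for *Lifr* and −0.68 (SE 0.37) for *Osmr*, and with eutherian *CRX* −0.38 (SE 0.36) and −0.66 (SE 0.38). None passed the threshold. Without eutherian *CRX* replicate 3 the values of metatherian *CRX* were −0.82 (SE 0.18) and −0.68 (SE 0.14), and those of eutherian *CRX* were 0.06 (SE 0.20) and −0.17 (SE 0.16). Those of eutherian *CRX* were −0.82 and −1.10 without its replicate 2.

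*Stat3*, the transcription factor on which these receptors converge, varied least of the 10 among the control libraries, relative to its mean (SD 16.0 CPM around 381 CPM). It was at 385, 363 and 394 CPM in control, 354, 353 and 169.7 CPM in eutherian *CRX*, and 330.3, 299 and 235 CPM in metatherian *CRX*. All 6 *CRX* libraries were below all 3 control libraries, although the first 2 of eutherian *CRX* were so by little. The log2 fold changes were −0.44 (SE 0.22) with metatherian *CRX* and −0.45 (SE 0.23) with eutherian *CRX*, and the latter was −0.16 (SE 0.15) without eutherian *CRX* replicate 3. The former was −0.14 without control replicate 3 and −0.25 without all libraries numbered 3. None passed the threshold.

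**Figure D3:**
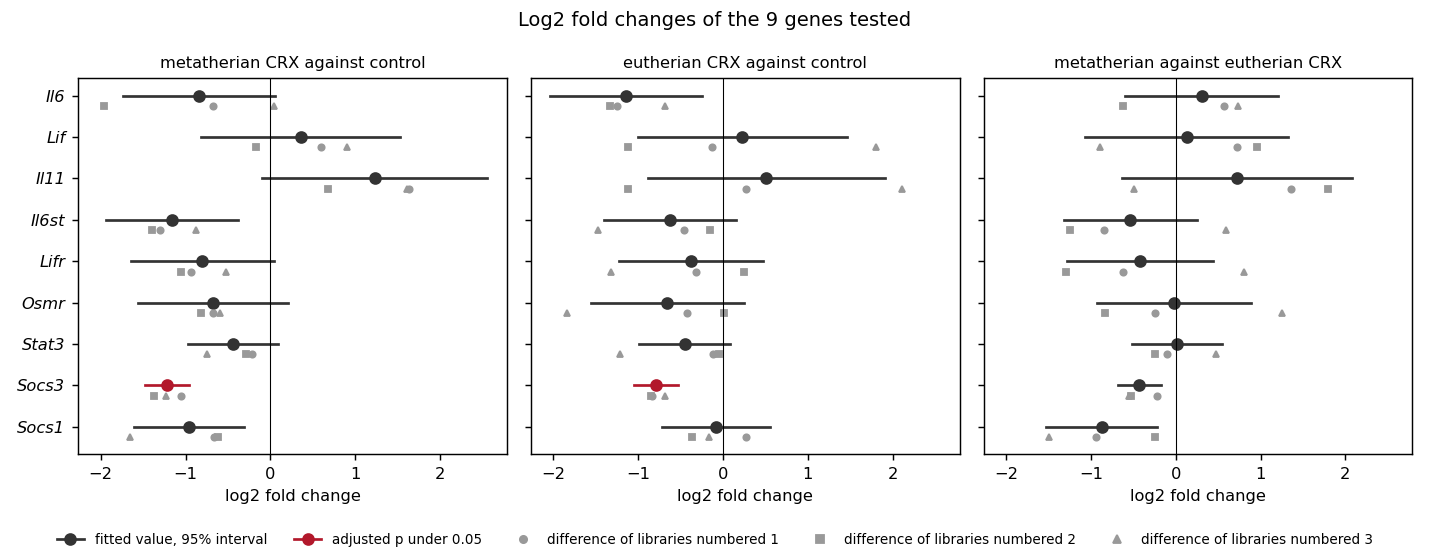
Log2 fold change of each of the 9 genes tested, in 3 comparisons, as a fitted value with its 95% interval (red where the adjusted p was under 0.05) and, in grey beneath it, the difference between the libraries that share each replicate number. Only *Socs3* is red in the comparisons with control, at −1.22 and −0.79, and no gene is red in the direct comparison.

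The following counts and medians describe the comparisons that chose the genes, and nothing is read from them. The median log2 fold change of the 9 genes was −0.80 with metatherian *CRX* and −0.45 with eutherian *CRX*, against −0.0080 and 0.0013 over all 10100 genes, and −0.82 and −0.22 without eutherian *CRX* replicate 3. An unadjusted p under 0.05 was reached by 3 of the 9 (*Il6st*, *Socs3* and *Socs1*) with metatherian *CRX*, where 19.5% of all genes did so, and by 2 (*Il6* and *Socs3*) with eutherian *CRX*, where 8.56% did. The libraries of the groups did not overlap for 6 of the 9 with metatherian *CRX* (*Il11* above, and *Il6st*, *Lifr*, *Stat3*, *Socs3* and *Socs1* below), beside 23.3% of all genes. With eutherian *CRX* this held for 3 (*Il6*, *Stat3* and *Socs3*, all below), beside 14% of all genes. Both comparisons share the control libraries.

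The order of libraries was much the same in several of these genes. The 4 libraries with the most *Il11*, namely eutherian *CRX* replicate 3 and metatherian *CRX* replicates 3, 2 and 1, were the 4 with the least *Il6st*, in the same order. The summed fibroblast markers, given above, were also lowest in these 4 libraries, and in 8 of the 9 markers the fitted value was below 0 with metatherian *CRX* (median log2 fold change −1.28) and with eutherian *CRX* (median −0.48, or −0.20 without replicate 3). The part of the fibroblast markers in the results on the receptor chains was not tested. In RNA from whole cultures, fewer cells of a type and less RNA per cell cannot be told apart. Of 10 macrophage and leukocyte markers, 9 were listed, none of them at 0 in all libraries of a condition, and their summed level was 13.2 to 47.1 CPM in control, 5.45 to 25.3 CPM in eutherian *CRX* and 5.24 to 11.5 CPM in metatherian *CRX*. In control *Lyz2* was the highest, at 4.21 to 23.5 CPM, and *Cd68* was at 4.59 to 5.95 CPM. With metatherian *CRX* the highest on average was *Cd68*. The mean levels of *Il6* and *Socs3* were also highest in control, although for *Il6* metatherian *CRX* overlapped control. The part of these markers in the *Il6* and *Socs3* levels was not tested. Of the other cell types, 6 endothelial markers, led by *Kdr* and with *Tie1* at 0 in all control libraries, summed to 11.2 to 18.5 CPM in the 9 libraries. The 6 epithelial markers, led by *Krt19*, summed to 7.69, 12.3 and 16.2 CPM in control, 11.2, 8.47 and 31.1 CPM in eutherian *CRX*, and 18.5, 25.9 and 22.0 CPM in metatherian *CRX*. Their sum was thus highest in the 4 libraries with the most *Il11* and the least *Il6st*, and the part of these markers in those results was not tested.

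In the direct comparison of metatherian with eutherian *CRX*, the question was whether the orthologues differed in these genes. None of the 9 was called, and 0% of all genes tested were, the smallest adjusted p of any gene being 0.23. An unadjusted p under 0.05 was reached by 2 of the 9 (*Socs3* and *Socs1*), beside 11.5% of all genes, and 1 of the 9 (*Socs1*) had no overlap between the groups, beside 11.5%. With DESeq2 1 of the 9 was called (*Socs3*), as were 317 of all 10100 genes, and with limma voom and library quality weights 6 of the 9 were, as were 4883 of all genes.

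*Socs3* was lower with metatherian than with eutherian *CRX* in all 3 pairs of libraries with the same number, by log2 differences of −0.22, −0.52 and −0.55. The fitted value was −0.43 (SE 0.11, 95% interval −0.69 to −0.17), and it did not pass the threshold (adjusted p = 0.28, edgeR, over all genes). *Socs1* was also lower in all 3 pairs, with a fitted value of −0.87 (SE 0.27, 95% interval −1.53 to −0.22, adjusted p = 0.34). Every metatherian *CRX* library was below every eutherian *CRX* library for *Socs1*, at 1.95 to 4.52 CPM against 5.37 to 5.72 CPM.

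For the cytokines, the fitted value was 0.72 for *Il11* (95% interval −0.63 to 2.08, adjusted p = 0.68), 0.30 for *Il6* (−0.60 to 1.20, adjusted p = 0.80) and 0.13 for *Lif* (−1.07 to 1.33, adjusted p = 0.95). For the receptor chains it was −0.53 for *Il6st* (−1.32 to 0.25, adjusted p = 0.59), −0.43 for *Lifr* (−1.28 to 0.43, adjusted p = 0.71) and −0.02 for *Osmr* (−0.93 to 0.88, adjusted p = 0.99). *Stat3* was at 0.02 (−0.52 to 0.55, adjusted p = 0.99). Each of these intervals covers both directions, and all but those of *Osmr* and *Stat3* reach beyond 1 log2 unit. They do not show that the orthologues act alike. Some values became smaller in size with other libraries left out. *Il11* was at 0.18 without eutherian *CRX* replicate 2, and *Il6st* at −0.14 without all libraries numbered 2. Eutherian *CRX* replicate 3 set much of the spread in these intervals. Without it, *Il6st* was lower with metatherian *CRX* by a log2 value of −0.96 (SE 0.17, adjusted p = 0.044), *Il11* was at 1.65 (SE 0.34, adjusted p = 0.057), *Lif* at 0.96 (SE 0.29, adjusted p = 0.14), *Lifr* at −0.88 (SE 0.21, adjusted p = 0.078), *Osmr* at −0.51 (SE 0.16, adjusted p = 0.15), *Stat3* at −0.24 (SE 0.14, adjusted p = 0.43) and *Socs3* at −0.36 (SE 0.12, adjusted p = 0.17), from the 2 eutherian *CRX* libraries that were left.

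Compared per length of exon, the genes spanned a wide range. In control, *Il6st* was the highest at 224 FPKM ± 71.4 (SD, n = 3), followed by *Stat3* at 83.8 ± 3.52, *Osmr* at 65.8 ± 15.8 and *Socs3* at 19.9 ± 5.44. The ranges of these 4 did not overlap with that of the next gene in the order. *Il11* (4.8 FPKM), *Lifr* (4.66), *Socs1* (4.44), *Lif* (3.20) and *Il6* (3.0) formed a group in which neighbours overlapped and did not differ beyond their spread. *Socs2* was far lower per length, at 0.34 FPKM ± 0.02. Its summed exons were the longest, at 11342 bases against 1087 for *Il6*. By CPM its control mean of 3.88 was not below that of *Il6*, 3.26. LIF receptor transcripts were thus scarce beside those of gp130, whose level was 33.6 to 51.3 times that of *Lifr* over the 9 libraries.

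The order changed with metatherian *CRX*, where *Il11* at 11.5 FPKM ± 3.05 came before *Socs3* at 8.56 ± 2.39, with ranges that overlapped. *Il6st* remained first at 95.2 FPKM ± 17.5, then *Stat3* at 63.4 ± 10.6 and *Osmr* at 40.4 ± 8.86. With eutherian *CRX*, *Il6st* (159 FPKM ± 93.7), *Stat3* (64.2 ± 23.3) and *Osmr* (47.5 ± 29.9) kept the first places but overlapped, since replicate 3 was low in all of them.

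**Figure D4:**
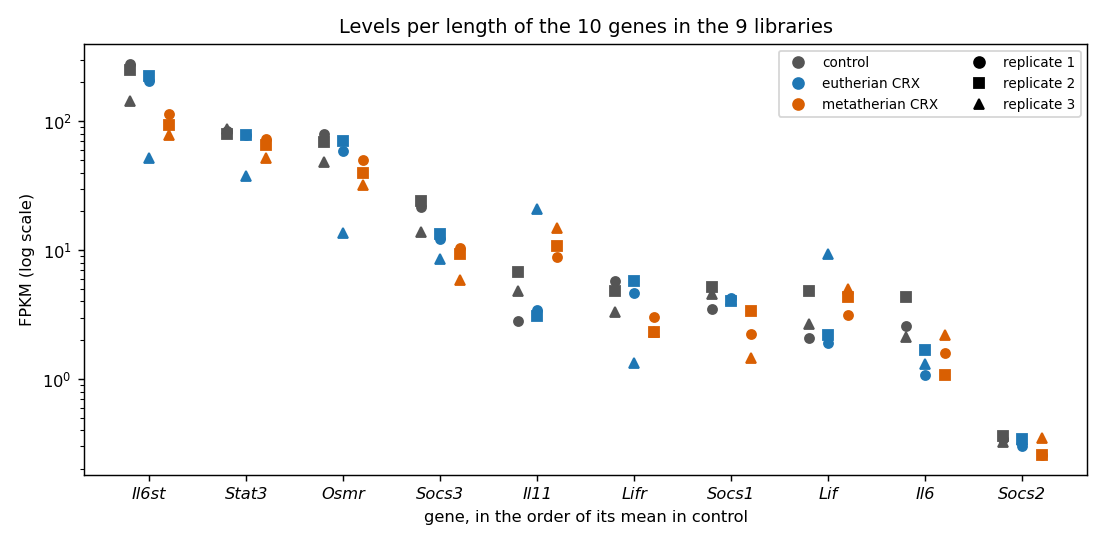
FPKM (log axis) of the 10 genes in the 9 libraries, ordered by the mean in control, with the colour giving the condition and the symbol the replicate number. *Il6st* lies near 224 FPKM and *Socs2* near 0.34 FPKM in control, and *Il11* is the one gene whose metatherian *CRX* points all lie above control.

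Ratios between genes of the same library, picked after the values were seen and given without a test, differed between receptor chains whose order of libraries was alike. *Il6st* had 2.96 to 3.58 times the FPKM of *Osmr* in control and 3.18 to 3.83 times in eutherian *CRX*, replicate 3 included, and 2.27 to 2.43 times in metatherian *CRX*, below all other libraries. *Stat3* had 3.30 to 6.28 times the FPKM of *Socs3* in control, 4.34 to 6.38 times in eutherian *CRX* and 6.94 to 8.81 times in metatherian *CRX*. The ratio of *Lif* to its receptor *Lifr* was 0.36 to 1.00 in control, 0.39, 0.41 and 6.97 in eutherian *CRX* and 1.04 to 2.15 in metatherian *CRX*. That of *Il11* to *Il11ra1*, which encodes the IL-11 alpha receptor, was 0.18 to 0.56 in control, 0.19, 0.22 and 2.84 in eutherian *CRX* and 0.78 to 2.23 in metatherian *CRX*. That of *Il6* to *Il6ra* ran the other way and overlapped, at 0.72 to 2.10 in control, 0.47 to 1.30 in eutherian *CRX* and 0.45 to 0.88 in metatherian *CRX*. That of *Osmr* to *Lifr* was 13.7 to 14.5 in control, 10.1 to 12.7 in eutherian *CRX*, below control, and 13.8 to 16.9 in metatherian *CRX*, overlapping it.

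The rest of the pathway was described from lists. Of 9 other genes of the IL-6 cytokine family, 4 were kept and none was called in any comparison. *Clcf1*, cardiotrophin-like cytokine factor, was at 7.46, 11.3 and 7.55 CPM in control, 6.91, 6.58 and 9.64 CPM in eutherian *CRX* and 5.31, 6.27 and 4.44 CPM in metatherian *CRX*, with a log2 fold change of −0.71 (SE 0.24, adjusted p = 0.19) from control in the latter. *Cntf*, ciliary neurotrophic factor, was at 3.06, 2.76 and 3.46 FPKM in control, eutherian *CRX* and metatherian *CRX*. *Osm*, the gene of oncostatin M itself, had 0 or 1 counts per library, and *Il31* had 0 in all 9, which allows up to 3 counts in each.

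Of 6 other receptor chains, 2 were kept and none was called. *Il11ra1* was at 30.8, 23.6 and 28.1 CPM in control, 30.1, 31.7 and 14.4 CPM in eutherian *CRX*, and 22.2, 18.5 and 13.0 CPM in metatherian *CRX*, all of the last below control (log2 fold change −0.67, SE 0.24, adjusted p = 0.21). *Il6ra*, which encodes the IL-6 alpha receptor, was at 5.74 to 12.3 CPM in control, 5.02 to 11.8 CPM in eutherian *CRX* and 7.60 to 12.9 CPM in metatherian *CRX*, ranges that overlapped.

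Of 10 JAK kinases and other STATs, 8 were kept and none was called. *Jak1*, the main kinase of gp130, was at 124, 114 and 111 FPKM in control, eutherian *CRX* and metatherian *CRX*, with log2 fold changes from control of −0.13 (SE 0.18) with eutherian and −0.14 (SE 0.18) with metatherian *CRX*. *Stat6*, the factor of IL-4 signalling, was at 24.1, 22.7 and 23.2 FPKM. The list's median log2 fold change was 0.01 with metatherian *CRX* and −0.11 with eutherian *CRX*. Of 12 other SOCS genes and JAK-STAT inhibitors, 11 were kept and none was called, with medians of 0.03 and −0.01. *Ptpn11*, the phosphatase SHP2 that binds gp130 at the same site as SOCS3, was at 59.8, 59.3 and 61.9 FPKM, *Socs5* at 21.2, 22.9 and 27.6 FPKM and *Pias4* at 15.6, 15.9 and 12.8 FPKM. Over the 9 libraries *Ptpn11* was at 291 to 369 CPM.

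Of 23 STAT3 target genes, 20 were kept, and 1 was called, lower, with eutherian *CRX*. It was *Birc5*, which encodes the survival and cell division protein survivin, at 6.45, 8.28 and 15.0 CPM in control, 2.57, 2.49 and 5.28 CPM in eutherian *CRX*, and 4.57, 4.31 and 6.04 CPM in metatherian *CRX*. All *CRX* libraries were below all control libraries. *Birc5* passed the filter on low values only through control, where it was high, at 2.90 FPKM against 1.01 and 1.46 FPKM with eutherian and metatherian *CRX*, so that its level in control alone admitted it to the test and its call supports nothing about the list. The fall was 2.87-fold with eutherian *CRX* (log2 fold change −1.52, SE 0.20, adjusted p = 0.039). The call was lost without the replicate block (adjusted p = 0.35), with only the 6 libraries compared (0.071) and without any 1 library other than metatherian *CRX* replicate 3, and it was made in 8 of 20 alternatives, with log2 values of −1.66 to −1.42 in all of them. The value with metatherian *CRX* was −0.91 (SE 0.20, adjusted p = 0.10). Of the 20, 13 lay below 0 with metatherian *CRX* (median −0.23) and 15 with eutherian *CRX* (median −0.27), against medians of −0.0080 and 0.0013 over all genes. An unadjusted p under 0.05 was reached by 5 lower and 2 higher genes with metatherian *CRX* and by 3 lower and 1 higher with eutherian *CRX*. Over all genes tested the same held for 1056 lower and 913 higher genes with metatherian *CRX* and for 640 lower and 225 higher with eutherian *CRX*, where 59 of the 61 genes called were lower. Without eutherian *CRX* replicate 3 the medians of the list were −0.21 with metatherian and −0.42 with eutherian *CRX*.

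The other targets with the largest differences from control did not pass the threshold. *Bcl3*, a partner of NF-κB, was at 5.51, 9.13 and 8.20 CPM in control, 3.29, 5.45 and 3.57 CPM in eutherian *CRX*, and 4.01, 4.49 and 1.93 CPM in metatherian *CRX*, all *CRX* libraries below control. *Cebpd*, a transcription factor of the acute-phase response, was at 34.5, 54.4 and 45.2 CPM in control, 27.6, 30.0 and 16.1 CPM in eutherian *CRX*, and 24.9, 35.1 and 5.99 CPM in metatherian *CRX*. Its log2 fold changes were −1.28 (SE 0.46) with metatherian and −0.96 (SE 0.44) with eutherian *CRX*. *Fos*, an immediate early gene, was at 15.4 to 27.2 CPM in control, 9.29 to 11.1 CPM in eutherian *CRX* and 11.5 to 18.4 CPM in metatherian *CRX*, so that the eutherian *CRX* libraries were below both other conditions. *Junb*, another immediate early gene, ranged from 14.0 CPM in metatherian *CRX* replicate 3 to 176 CPM in control replicate 2.

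The genes whose pattern was most like that of *Socs3* were found by the root mean square difference of log2 CPM over the 9 libraries, each gene centred on its own mean. The closest 5 of the genes kept were *Trib3* (0.20), *Chac1* (0.22), *Podxl2* (0.23), *Acot2* (0.25) and *Serpinh1* (0.25). *Trib3*, a pseudokinase, and *Chac1*, a glutathione-degrading enzyme, are both known targets of the ATF4 stress response, and *Serpinh1* encodes a collagen chaperone. *Trib3* was at 28.5, 21.2 and 16.9 CPM in control, 14.0, 17.6 and 12.0 CPM in eutherian *CRX*, and 14.4, 12.4 and 6.55 CPM in metatherian *CRX*. Among the 9 genes tested, *Il6st* (0.42) and *Stat3* (0.43) were the closest to *Socs3*, at places 335 and 413 among the genes kept. *Lif* (1.11) and *Il11* (1.46) were the farthest. Places of the genes of the other pathway lists are not given here. These distances are taken over the same 9 libraries for every gene and carry no test.

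All values rest on exon counts of the genes on GRCm38. *Socs3* lies at chr11:117966079-117970341 (minus strand), on the same chromosome as *Lif* (chr11:4257568-4272514, plus strand) and *Stat3* (chr11:100886810-100939570, minus strand). *Osmr* (chr15:6813568-6875246, minus strand) and *Lifr* (chr15:7090611-7197489, plus strand) lie near each other on chromosome 15. *Il6st* is at chr13:112464070-112506860, *Il6* at chr5:30013161-30019968, *Il11* at chr7:4772378-4782857, *Socs1* at chr16:10783808-10785536 and *Socs2* at chr10:95383903-95417253.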

How the data were processed

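Mouse embryonic fibroblasts of 3 conditions were analysed, with 3 libraries each. The authors aligned paired reads to mm10 (GRCm38) with STAR, counted them with featureCounts, and deposited raw counts of genes, neither normalized nor pooled. Strand setting, handling of multiply aligned reads and annotation release are not given in the sources used here. The labels give 48 h of recovery after selection, whereas the paper places it before selection.

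The count table was analysed in R 4.3.3 with edgeR 4.0.16 and limma 3.58.1. From 22068 genes, 14599 were kept by filterByExpr and 10100 by a further minimum of 2 FPKM, as the mean of any condition. The quasi-likelihood test was fitted to all 9 libraries with TMM scaling and a block for the replicate number, with Benjamini-Hochberg adjustment. The block was used because the paper states that samples were prepared in pairs. As a check, deviations from the condition mean were correlated between libraries that share a number. The correlation was above 0.1 in 8 of 9 cases, the lowest being 0.0034, and in 5 of 18 cases of different numbers, up to 0.72, so that the pairing by number is not established. Intervals are 95% and unadjusted. Each SE is the log2 value over the root of its F statistic. Libraries of a condition differed by more than sampling noise (chi-square per degree of freedom of at least 19.6) and were all used. A count of 0 allows up to 3 counts, which covers counting error only.

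Alternatives were no block, other scalings and filters, DESeq2 1.42.0, limma voom with quality weights, only the 6 libraries compared, and libraries left out. All 10 genes are named. Of each other list, genes called, otherwise at most 3 of the highest FPKM, are named, with at most 5 STAT3 targets by fold change, 5 genes most like *Socs3* and 2 genes of each marker list. Some genes that this rule names are not reported here. Members and lists were chosen with earlier results of these data known.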

Additional observations from a re-analysis of the deposited data

How the results depend on the processing

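The number of the 9 genes called depended on the model more than their fold changes did. In metatherian *CRX* against control, 1 was called. Without the replicate block 0 were, with filterByExpr alone 0, and with no filter on low counts 0. DESeq2 called 3 (and 1004 of all 10100 genes), limma voom with quality weights 8 (4665 of all genes), and the fit of only the 6 libraries compared 3 (398). With libraries left out the number was 0 to 6, namely 5 without eutherian *CRX* replicate 3 (891 of all genes) and 6 without the libraries numbered 3 (2252). In eutherian *CRX* against control, 1 was called. Without the replicate block 0 were, with limma voom 4 (1697 of all genes), with only the 6 libraries 0, and with libraries left out 0 to 1. In the direct comparison, 0 were called with or without the replicate block, 1 with DESeq2 (317 of all genes), 6 with limma voom (4883), and 0 to 6 with libraries left out. These were 1, *Il6st*, without eutherian *CRX* replicate 3 (340 of all genes) and 6 without the libraries numbered 3 (2280). The cause of these differences was not tested. The data do not establish that the numbers mark pairs.

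Of the 180 values that the 9 log2 fold changes took under 20 alternatives in each comparison, 1 changed sign in metatherian *CRX* against control (*Lif*), 13 in eutherian *CRX* against control (*Lif*, *Il11*, *Lifr* and *Socs1*) and 24 in the direct comparison. In the last, *Lif* was −0.11 without the replicate block, *Osmr* 0.045 with only the 6 libraries, and *Stat3* −0.020 without the block, −0.018 with upper-quartile scaling and −0.087 with limma voom. With libraries left out, *Il6* ran from −0.089 to 0.74, *Lif* from −0.33 to 0.96, *Lifr* from −0.97 to 0.070, *Osmr* from −0.54 to 0.45 and *Stat3* from −0.24 to 0.20. Against control with metatherian *CRX*, *Lif* was 0.92 without control replicate 2, and *Lifr* was −1.22 and *Osmr* −1.03 without metatherian *CRX* replicate 3. At the other end, *Lif* was −0.068 and *Osmr* −0.42 without control replicate 3, and *Lifr* −0.54 without metatherian *CRX* replicate 2. The depth was 89 to 427 counts per library for *Il6*, 128 to 636 for *Socs1* and 202 to 372 for *Socs2*.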

Other observations

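Below the filter on low values, a receptor chain of the same family had separate ranges. *Il31ra*, whose product pairs with that of *Osmr* to form the IL-31 receptor, had 68, 111 and 81 counts in control, 27, 30 and 1 in eutherian *CRX*, and 8, 8 and 22 in metatherian *CRX*. These were 1.30, 1.21 and 1.16 CPM in control against 0.34, 0.44 and 0.01 CPM in eutherian *CRX* and 0.10, 0.11 and 0.33 CPM in metatherian *CRX*. The control values were the 3 highest, and *Il31ra* was not tested.

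Among STAT3 targets that were also too low to be tested, *Lcn2*, which encodes the iron-binding acute-phase protein lipocalin 2, was at 0.23, 0.39 and 0.17 CPM in control, 0.62, 1.06 and 2.22 CPM in eutherian *CRX* and 0.30, 0.48 and 0.12 CPM in metatherian *CRX*. The eutherian *CRX* libraries were above the other 6. *Saa3*, another acute-phase gene, was at 0.26, 1.70 and 0.99 CPM in eutherian *CRX* and at 0.09 to 0.56 CPM in the other 6 libraries, with which its lowest value overlapped.

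Within the SOCS family, *Socs6* ran against *Socs3*. It was at 44.3, 42.1 and 43.8 CPM in control, 47.4, 44.0 and 96.5 CPM in eutherian *CRX*, and 87.1, 90.4 and 96.1 CPM in metatherian *CRX*. The metatherian *CRX* libraries were all above control, and in eutherian *CRX* only replicate 3 was clearly above it. The log2 fold change with metatherian *CRX* was 1.07 (SE 0.23), with an adjusted p of 0.099 (edgeR) that did not pass the threshold. *Socs6*, *Il31ra*, *Lcn2* and *Saa3* were picked after their values were seen.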
